A study of Mus musculus with 20 samples.

Results

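The major urinary proteins (Mup) are small secreted lipocalins, barrel-shaped proteins that carry volatile pheromones. Mouse liver makes them, blood carries them to the kidney, and they leave in the urine, where they hold scents and act as signals of sex and identity. In mouse liver their transcription is known to be higher in males, to need pulsatile growth hormone and STAT5, and to respond to androgens, glucocorticoids and thyroid hormone. Their genes lie in 1 cluster in which most copies have near-identical sequences and alternate with pseudogenes.

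The members were chosen by name, as the genes and pseudogenes called Mup followed by a number or by ps and a number, with at least 1 count in the 20 libraries. Of 54532 rows of the count table, of which 34445 had a count, 48 carried such a name. A total of 6 of these had no count, which left 42 members, 21 genes and 21 pseudogenes. All 42 lie on mouse chromosome 4 between 59956804 and 62150863 (mm10), a span of 2.19 Mb, and 26 are on the minus strand. Gm21320, at 60817589 to 60821463 inside this span, is named Mup22 in GENCODE M21 but not in the count table, so it is not a member. Its coding sequence was 99.8% identical to that of Mup18, and 0.0% of its 100-base transcript windows occurred in no other gene.

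Each genotype and number has a liver and a kidney library, and these are taken here as coming from the same mouse. The labels do not spell out mouse identity. There were 5 male C57BL/6 mice labelled Lxrα-/-, numbered 1 to 5, and 5 male C57BL/6 mice labelled wild type, numbered 1, 3, 4, 5 and 6. The gene of Lxrα is Nr1h3, and the receptor senses oxysterols and switches on sterol and lipid genes. The labels give no age, diet, littermate status or design of the deleted allele, and name no second allele or treatment. Each group has 5 libraries, and the comparison asks which genes differ between genotypes within a tissue. Tissue was sequenced in bulk, so fewer cells of a type and less RNA per cell cannot be told apart.

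The targeted gene did not fall. Nr1h3 averaged 167 ± 18.0 CPM (counts corrected for sequencing depth) in labelled knockout livers and 98.1 ± 13.6 CPM in wild-type livers (SD, n = 5 each), and 126 ± 21.7 CPM in labelled knockout kidneys and 52.0 ± 2.29 CPM in wild-type kidneys. It was called higher in both tissues by edgeR (log2 fold change 0.76 ± 0.12 SE, adjusted p = 0.00277 in liver; 1.27 ± 0.16, adjusted p = 0.00209 in kidney). A count over the whole gene does not show which exons were read, so the mice are called labelled knockout throughout. All 20 libraries had counts of the Y-linked Ddx3y (540 to 2002) and at most 8 counts of Xist. The summed CPM of 10 hepatocyte markers ran from 73215 to 95502 in labelled knockout livers and from 102280.5 to 135943 in wild-type livers. In kidney it ran from 278 to 690.5 CPM in labelled knockout libraries and from 133 to 350.5 CPM in wild-type libraries. The summed CPM of 5 Kupffer cell markers ran from 49.9 to 119.5 in labelled knockout livers and from 193 to 310 in wild-type livers. By edgeR, 4 of the 5 fell, beside 4.08% of all genes tested in liver that fell. Labelled knockout livers 4 and 5 stood apart by acute-phase genes, with 7903 and 14742 CPM of Saa1, which encodes serum amyloid A, against 45.3 to 111 CPM in the other 3 labelled knockout livers and 52.6 to 109 CPM in wild-type livers. Mitochondrially encoded genes took 50.8% of counts in wild-type kidney 3.

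The 21 genes fall into 2 sequence classes. In the coding sequences of GENCODE M21, 15 genes (Mup1, Mup2 and Mup7 to Mup19) were 98.5 to 100% identical to Mup15 and are called near-identical here. The other 6 (Mup3, Mup4, Mup5, Mup6, Mup20 and Mup21) were 82.9 to 90.5% identical to it and are called divergent. Mup3 and Mup21 were 94.8% identical to each other. The same 90 bases of the coding sequence are shown from 6 genes on chromosome 4 to show how alike copies with different levels are. They start at base 244 of the coding sequence of Mup15, Mup12 and Mup7, at base 247 of Mup20 and Mup21 and at base 256 of Mup3, and capitals mark the bases that differ from Mup15.
Mup15: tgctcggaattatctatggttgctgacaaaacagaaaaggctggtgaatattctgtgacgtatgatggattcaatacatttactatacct
Mup12: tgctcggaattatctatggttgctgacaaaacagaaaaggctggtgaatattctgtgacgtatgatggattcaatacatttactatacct
Mup7: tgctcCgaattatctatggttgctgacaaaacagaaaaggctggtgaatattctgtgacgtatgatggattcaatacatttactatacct
Mup20: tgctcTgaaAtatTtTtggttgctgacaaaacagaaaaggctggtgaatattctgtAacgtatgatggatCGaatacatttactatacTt
Mup21: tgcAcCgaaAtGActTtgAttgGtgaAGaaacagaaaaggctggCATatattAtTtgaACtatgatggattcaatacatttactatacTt
Mup3: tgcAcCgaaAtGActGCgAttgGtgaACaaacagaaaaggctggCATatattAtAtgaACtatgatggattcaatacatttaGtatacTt
In this stretch Mup12 had 0 differences from Mup15, Mup7 had 1, Mup20 had 8, Mup21 had 18 and Mup3 had 20. It was picked, among stretches aligned without gaps, for the most differences between Mup15 and Mup3. Over the whole coding sequence Mup3 was 82.9% identical to Mup15. A read from Mup15, Mup12 or Mup7 in this stretch could come from several genes.

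How far a read can tell the copies apart was measured as the share of 100-base windows of a gene's transcripts that occur in no other gene of GENCODE M21. This share was 2.7% for Mup15, 0.0% for Mup19, 22.5% for Mup12, 23.9% for Mup7 and 40.6% for Mup17. It was 61.2% for Mup20, 95.5% for Mup21, 97.8% for Mup3 and 100% for Mup6. Across the near-identical class it ran from 0.0 to 44.3%, and across the divergent class from 61.2 to 100%. The level of 1 near-identical gene is therefore uncertain, since the counting may have split or moved reads among copies, and the class sum shares reads with Gm21320 outside it.

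The promoters fall into the same 2 classes. RefSeq promoter windows (GRCm38.p6, 250 bases before to 50 after the annotated start) were given for 14 of the 21 genes. A TATA box spelled TATATAA, searched on the gene's strand, was in 13 of these 14 windows, against 722 of 32851 windows of all genes (2.2%); the window of Mup7 had none. The 220 bases that end with it are shown for 2 near-identical genes and for 2 divergent ones, all on the minus strand of chromosome 4 and written 5′ to 3′, with TATATAA in capitals. They are chr4:61439723-61439942 for Mup15, chr4:61595851-61596070 for Mup17, chr4:62087322-62087541 for Mup3 and chr4:62150843-62151062 for Mup21.
Mup15: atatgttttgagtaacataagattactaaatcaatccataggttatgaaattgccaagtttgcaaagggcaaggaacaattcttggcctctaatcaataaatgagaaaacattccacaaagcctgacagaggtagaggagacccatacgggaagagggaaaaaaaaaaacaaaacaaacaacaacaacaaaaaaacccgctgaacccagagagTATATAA
Mup17: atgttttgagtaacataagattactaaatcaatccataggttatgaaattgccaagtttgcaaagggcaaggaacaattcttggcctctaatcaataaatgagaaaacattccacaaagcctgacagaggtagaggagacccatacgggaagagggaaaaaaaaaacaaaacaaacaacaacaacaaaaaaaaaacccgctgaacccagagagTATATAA
Mup3: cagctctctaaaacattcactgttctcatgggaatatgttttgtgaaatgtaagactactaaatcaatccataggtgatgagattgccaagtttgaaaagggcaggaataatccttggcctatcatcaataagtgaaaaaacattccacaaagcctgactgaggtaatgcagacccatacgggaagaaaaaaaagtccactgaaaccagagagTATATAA
Mup21: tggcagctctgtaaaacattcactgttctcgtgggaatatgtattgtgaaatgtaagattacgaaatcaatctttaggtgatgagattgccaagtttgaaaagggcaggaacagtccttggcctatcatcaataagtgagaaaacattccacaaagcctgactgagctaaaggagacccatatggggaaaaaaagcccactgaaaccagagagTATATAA
Identity to the Mup15 stretch was 97.3% for Mup17, 64.8% for Mup3 and 62.5% for Mup21. Over the 9 near-identical genes with such a stretch it was at least 89.9%, and over the 4 divergent ones 62.5 to 69.6%. The liver calls given below do not all follow this split. Mup2 (93.8%) and Mup10 (91.1%) were not called, and the divergent Mup21 was called higher. The 60 bases before the TATA box, a run rich in A, held 61.7 to 70.0% A in the 9 near-identical genes and 41.7 to 51.7% A in the 4 divergent ones. Searched on both strands, the STAT5 motif TTCNNNGAA was in 0 of the 14 windows (8.3% of all windows), the motif of the glucocorticoid receptor (AGAACA, then 3 free bases, then TGTTCT) in 0 (0.00913% of all) and the LXR motif (AGGTCA, then 4 free bases, then AGGTCA) in 0 (0.0152% of all). This says only that these letters are not in these windows.

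In liver the Mup family took a larger part of the RNA in the labelled knockout mice. Summed over the 42 members, it made up 4.91, 4.02, 4.73, 3.56 and 3.56% of counts in labelled knockout livers 1 to 5, against 1.31, 0.745, 1.30, 0.492 and 1.02% in wild-type livers 1, 3, 4, 5 and 6. The groups did not overlap, and within the wild type the lowest library, liver 5 (95% Wilson interval 0.490 to 0.494%), was far below the highest, liver 1 (1.30 to 1.31%). As a level, the sum was 42738 ± 6890.0 CPM in labelled knockout livers and 9479 ± 3607 CPM in wild-type livers (SD, n = 5 each), a ratio of 4.51 (log2 2.17).

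Most of the difference came with the near-identical genes. Their sum was 28789 ± 4989.9 CPM in labelled knockout livers and 791 ± 563 CPM in wild-type livers, a ratio of 36.4. With Gm21320, a near-identical copy outside the members, the sum was 31050 ± 5160.8 CPM in labelled knockout livers and 2011 ± 1070 CPM in wild-type livers, a ratio of 15.4, and the groups still did not overlap. The pseudogenes summed to 528 ± 94.95 CPM in labelled knockout livers and 115 ± 92.4 CPM in wild-type livers, a ratio of 4.58. The divergent genes summed to 13421 ± 2356 CPM in labelled knockout livers and 8573 ± 3001 CPM in wild-type livers, a ratio of 1.57. Without Mup3 alone the family ratio was 17.1.

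**Figure D1:**
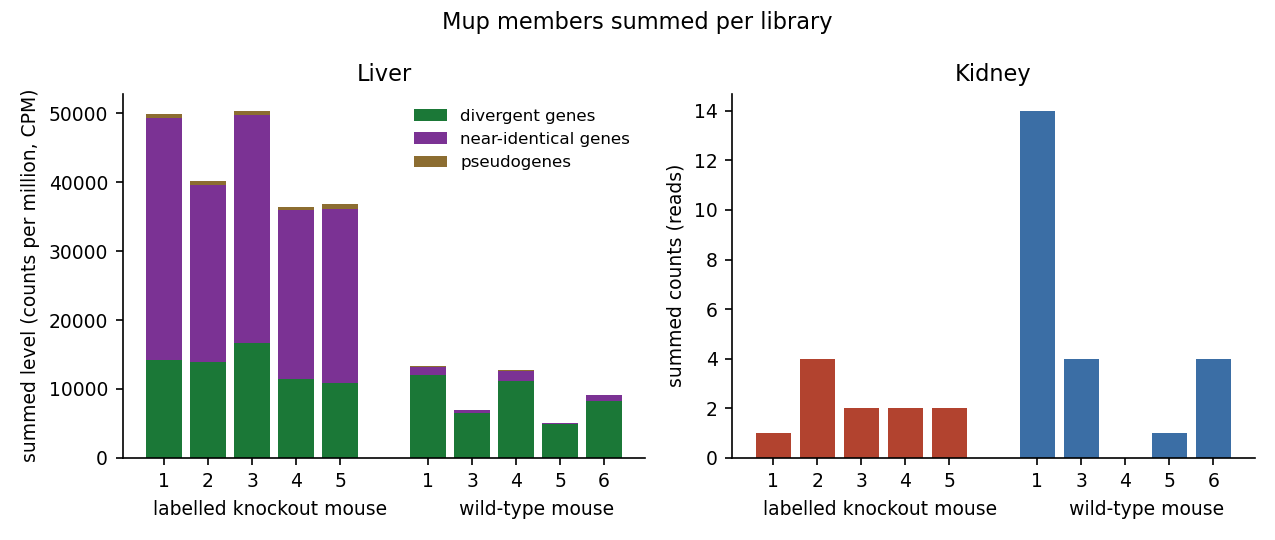
Summed Mup counts per library, in CPM by sequence class for liver (left) and as reads for kidney (right), with labelled knockout mice left of wild-type mice in each panel and 1 bar per library. The purple part, the near-identical genes, fills most of each labelled knockout liver bar (24487 to 35213 CPM) and little of each wild-type bar (83.0 to 1487 CPM), while kidney libraries hold 0 to 14 reads.

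In the edgeR test of liver, 28 of the 42 members passed the filter on low counts, and 19 of them were called, all higher in labelled knockout livers. Over all 14822 genes tested, 6.02% were called, 1.94% higher and 4.08% lower. The median log2 fold change was 2.58 over the tested members (0.21 to 8.79) and -0.00 over all genes. In 18 of the 19 called members, and in Mup20 among those not called, every labelled knockout liver lay above every wild-type liver, against 2.42% of all genes tested. Members near 0 in wild-type livers passed the filter through the labelled knockout livers, so these counts describe the members that passed and do not weigh the family. Without labelled knockout livers 4 and 5, 18 of 32 tested members were called, beside 636 of 15352 genes (216 higher). More members passed the filter in that fit, so its count is not over the same members.

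**Figure D2:**
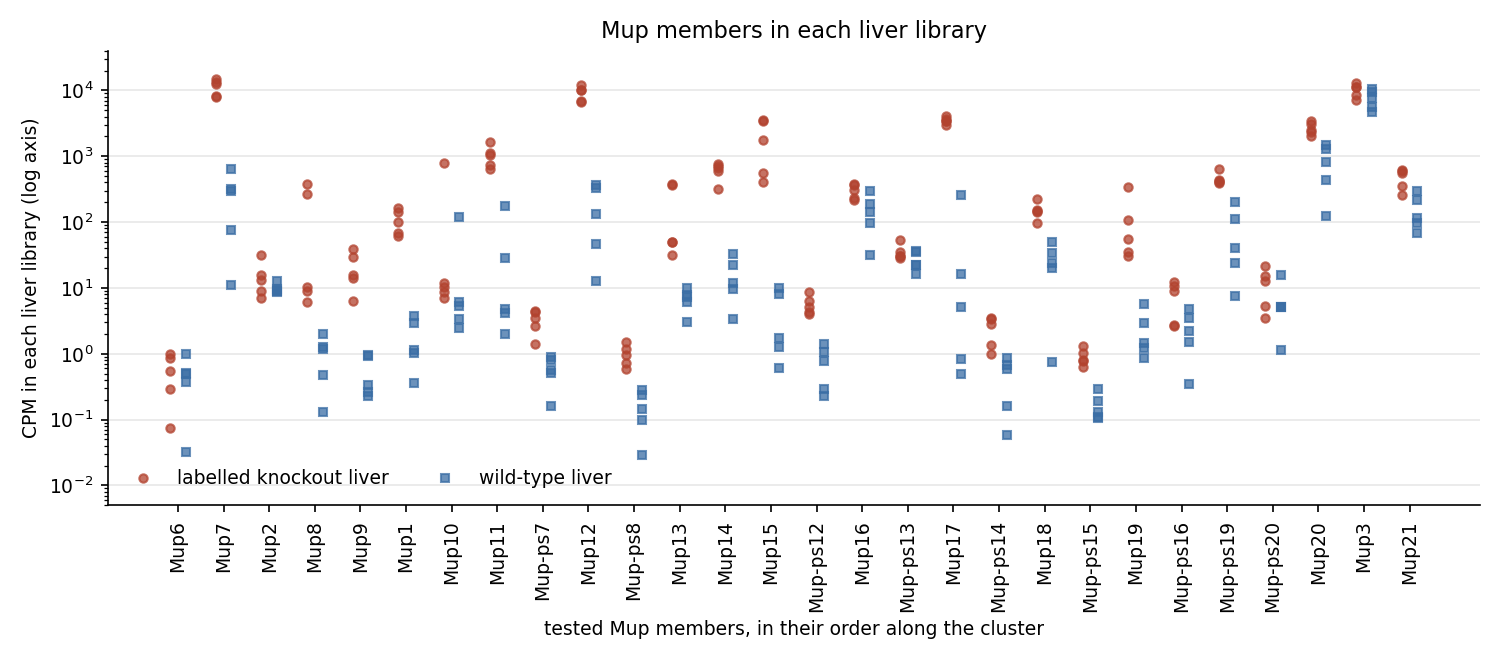
CPM of the 28 tested members in each liver library on a log axis, in their order along the cluster, with labelled knockout livers (circles) left of wild-type livers (squares). Mup7, Mup12 and Mup17 are apart by more than 10-fold in every pair of libraries, while Mup3 has both groups near the top of the plot and overlapping.

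Of the near-identical genes, all 15 were tested and 12 were called, with a median log2 fold change of 5.31 over the class (0.66 to 8.79). They encode the bulk urinary proteins of the pheromone-carrying type. Mup7 had 14902, 13192, 12706, 8211 and 7973 CPM in labelled knockout livers, against 314.5, 75.9, 644, 11.3 and 294 CPM in wild-type livers (log2 fold change 5.41 ± 0.82 SE, adjusted p = 0.00189). Mup12 had 9983, 6959.6, 12044, 9963 and 6658 CPM in labelled knockout livers, against 333, 47.2, 359, 12.9 and 135 CPM in wild-type livers (log2 fold change 5.68 ± 0.78, adjusted p = 0.000977). In both genes wild-type liver 5 was the lowest and wild-type liver 4 the highest of its group, and the groups did not overlap. Without wild-type liver 4 the log2 fold change of Mup7 was 6.05. Mup17 had 3457, 2950.2, 3673, 3452 and 4056 CPM in labelled knockout livers, against 5.16, 0.844, 258, 0.487 and 16.0 CPM in wild-type livers (log2 fold change 5.97 ± 1.45, adjusted p = 0.0281). Its labelled knockout livers were close together, and wild-type liver 4 was far above the other wild-type livers; the call was lost in turn without labelled knockout liver 4, wild-type liver 1 or wild-type liver 6 (largest adjusted p = 0.0765), and without wild-type liver 4 the log2 fold change was the highest of those fits, 9.29. The Mup17 call was also lost without labelled knockout livers 4 and 5 together (adjusted p = 0.0646), and DESeq2 gave no adjusted p for it.

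Mup15 had the highest fold change of the tested members, with 3522, 559.7, 1747, 399.9 and 3387 CPM in labelled knockout livers, against 8.14, 1.25, 10.1, 0.616 and 1.72 CPM in wild-type livers (log2 fold change 8.79 ± 1.03, adjusted p = 0.000341). Its labelled knockout livers themselves spread widely, with livers 2 and 4 low, and without wild-type liver 4 its log2 fold change was 9.39. Mup11 had 632, 748, 1138, 1052 and 1633 CPM in labelled knockout livers, against 172.5, 4.74, 28.0, 1.98 and 4.10 CPM in wild-type livers (log2 fold change 4.62 ± 1.09, adjusted p = 0.0248). Wild-type liver 1 was its highest wild-type library, and without it the log2 fold change was 6.75. The call of Mup11 was lost without wild-type liver 4 (adjusted p = 0.0583) and without labelled knockout livers 4 and 5 together (adjusted p = 0.0704). Mup14 had 757, 318, 703, 604 and 661 CPM in labelled knockout livers, against 22.4, 9.80, 32.4, 3.37 and 11.7 CPM in wild-type livers (log2 fold change 5.26 ± 0.53, adjusted p = 0.000122). Mup1 had 101, 68.5, 139.9, 61.6 and 166 CPM in labelled knockout livers, against 2.91, 1.03, 3.69, 0.357 and 1.15 CPM in wild-type livers, and had the smallest adjusted p of all members (log2 fold change 5.89 ± 0.53, adjusted p = 4.39e-05). In Mup14 and Mup1 the labelled knockout livers varied less than in Mup15, and wild-type liver 5 was again the lowest.

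Among the lower near-identical genes, Mup8, Mup13 and Mup19 were high in only some labelled knockout livers. Mup8 had 382.5 and 264.5 CPM in labelled knockout livers 1 and 2 and 10.4, 6.04 and 8.98 CPM in livers 3 to 5, against 2.02, 0.477, 1.26, 0.130 and 1.18 CPM in wild-type livers (log2 fold change 7.06 ± 1.33, adjusted p = 0.00764). Without labelled knockout liver 1 its log2 fold change was 6.18, and with limma voom it was not called (adjusted p = 0.0672). Mup13 had 50.2, 50.3, 373, 31.2 and 359.5 CPM in labelled knockout livers, against 10.1, 7.74, 7.27, 3.02 and 6.11 CPM in wild-type livers (log2 fold change 4.66 ± 0.74, adjusted p = 0.00254). Mup19 had 106, 56.3, 30.5, 341 and 35.6 CPM in labelled knockout livers, against 2.94, 1.47, 5.76, 1.23 and 0.861 CPM in wild-type livers (log2 fold change 5.55 ± 0.79, adjusted p = 0.00135). The high libraries were 1 and 2 for Mup8, 3 and 5 for Mup13 and 4 for Mup19, so the counts assigned to these copies did not follow one order of mice. The share of 100-base windows found in no other gene was 30.6% for Mup8, 16.4% for Mup13 and 0.0% for Mup19. Whether these orders reflect the mice or the assignment of shared reads was not tested. The log2 fold change of Mup19 was 4.55 without labelled knockout liver 4 and 6.16 without wild-type liver 4. With limma voom the log2 fold changes were 6.14 for Mup11, 3.58 for Mup13, 7.75 for Mup17 and 4.84 for Mup19, and these 4 stayed called. Mup9 had 6.25, 14.4, 15.9, 29.6 and 39.0 CPM in labelled knockout livers, against 0.969, 0.330, 0.913, 0.227 and 0.258 CPM in wild-type livers (log2 fold change 5.31 ± 0.55, adjusted p = 0.000146). Its highest libraries were labelled knockout livers 4 and 5, and without them the log2 fold change was 4.53 for Mup9, 7.78 for Mup8 and 4.74 for Mup19. Mup18 was closer together in the 5 labelled knockout livers. Mup18 had 142, 155, 222, 97.0 and 145 CPM in labelled knockout livers, against 49.4, 20.1, 23.8, 0.746 and 34.1 CPM in wild-type livers (log2 fold change 2.57 ± 0.64, adjusted p = 0.0313). The call of Mup18 was lost in turn without labelled knockout liver 2 or 3 or without wild-type liver 3, 4 or 6 (largest adjusted p = 0.0744), and without labelled knockout livers 4 and 5 together (adjusted p = 0.0567).

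The other 3 near-identical genes were not called, with overlapping groups. Mup16 averaged 299.8 ± 74.6 CPM in labelled knockout livers and 152 ± 99.1 CPM in wild-type livers (SD, n = 5 each; log2 fold change 0.98, adjusted p = 0.212), and Mup2 averaged 15.4 ± 9.82 CPM in labelled knockout livers and 9.76 ± 1.63 CPM in wild-type livers (log2 fold change 0.66, adjusted p = 0.286). Mup10 had 778.5 CPM in labelled knockout liver 1 and 6.91 to 12.0 CPM in the other 4, against 119 CPM in wild-type liver 6 and 2.43 to 6.05 CPM in the other 4 wild-type livers (log2 fold change 2.58, adjusted p = 0.378). Each group of Mup10 held 1 library far above the rest, and without labelled knockout liver 1 the log2 fold change was -1.51.

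The divergent genes lie toward the ends of the cluster, and 4 of the 6 were tested. Mup3 was the member with the highest level in every wild-type liver. It had 11183, 11250.0, 13069.9, 8632 and 7174 CPM in labelled knockout livers, against 10338, 5619.5, 9559.5, 4774 and 7629 CPM in wild-type livers, with overlapping groups (log2 fold change 0.44 ± 0.24, adjusted p = 0.337). Mup20 encodes darcin, the protein that makes a male's scent attractive to females. It had 2361, 2056, 3055, 2504 and 3379 CPM in labelled knockout livers, against 1492, 810.1, 1281, 123 and 440.5 CPM in wild-type livers. Its groups did not overlap, but the test missed the threshold (log2 fold change 1.69 ± 0.48, adjusted p = 0.0603); 6 of its 20 alternatives called it higher. Mup21 was the only divergent gene called, with 613, 547, 593, 353 and 258 CPM in labelled knockout livers, against 217, 98.4, 293, 67.7 and 114 CPM in wild-type livers (log2 fold change 1.58 ± 0.38, adjusted p = 0.0260). Its groups overlapped, since labelled knockout liver 5 was below wild-type liver 4, and the call was lost in turn without labelled knockout liver 2 or wild-type liver 3 or 6 (largest adjusted p = 0.0703). Mup6 averaged 0.551 ± 0.379 CPM in labelled knockout livers and 0.475 ± 0.342 CPM in wild-type livers (log2 fold change 0.21, adjusted p = 0.891).

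Mup4 and Mup5, which are known in mice from glands of the head rather than from liver, did not pass the filter. Mup4 had 1414 counts in labelled knockout liver 2 and 23, 0, 16 and 0 counts in labelled knockout livers 1, 3, 4 and 5, against 0 counts in each wild-type liver, which allows up to 0.0861 to 0.116 CPM. Its level thus rested on 1 library at 59.2 CPM. Mup5 averaged 2.83 ± 5.62 CPM in labelled knockout livers and 1.36 ± 3.05 CPM in wild-type livers, also from 1 high library in each group.

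**Figure D3:**
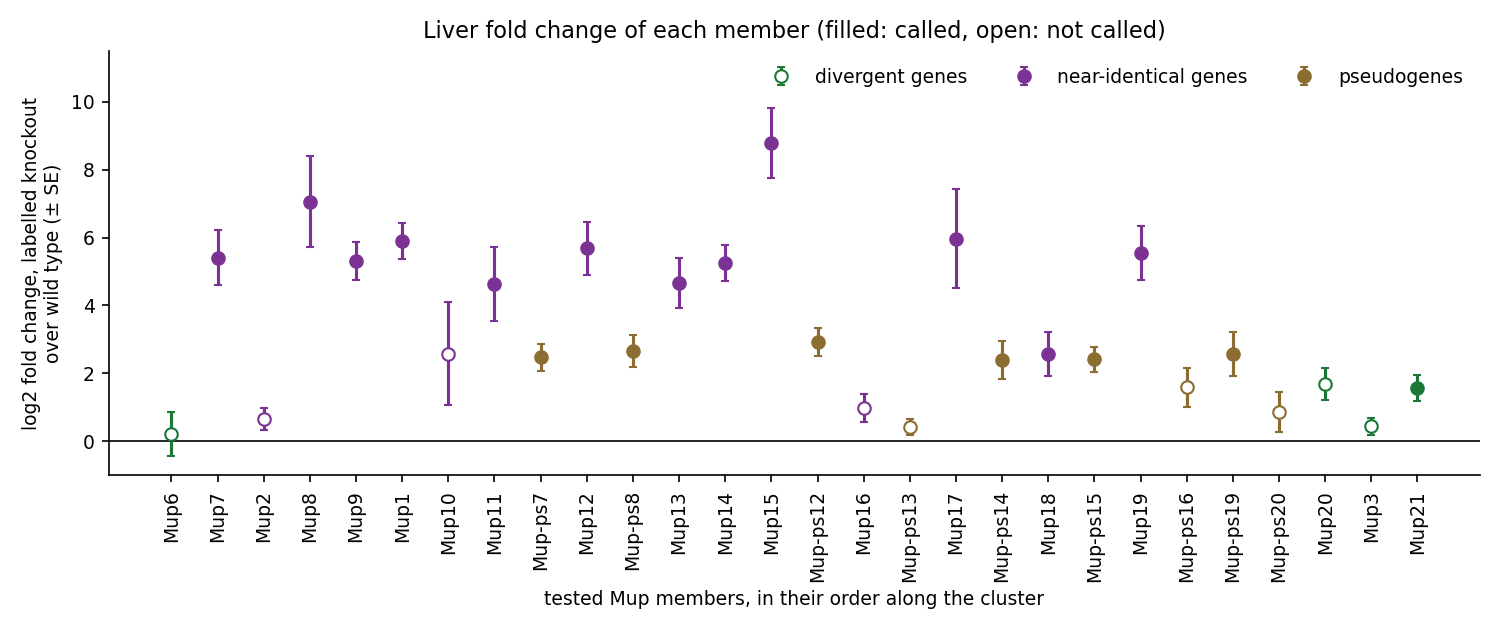
Liver log2 fold change of labelled knockout over wild type with its standard error for the 28 tested members in cluster order, coloured by class, filled where edgeR called the member and open where it did not. The near-identical genes reach up to 8.79, the pseudogenes stay between 0.43 and 2.93 and the divergent genes between 0.21 and 1.69.

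Of the 21 pseudogenes, which give no full protein, 9 were tested and 6 were called. Mup-ps19 carried most of their signal, with 391, 414, 428, 402 and 638 CPM in labelled knockout livers, against 199, 40.2, 113, 7.49 and 23.5 CPM in wild-type livers (log2 fold change 2.57 ± 0.65, adjusted p = 0.0348). Its call was lost in turn without labelled knockout liver 2, 4 or 5 or wild-type liver 3, 4 or 6 (largest adjusted p = 0.083) and without labelled knockout livers 4 and 5 together (adjusted p = 0.101), and without wild-type liver 1 its log2 fold change was 3.31. The other 5 called pseudogenes were at most 8.67 CPM in any library. Mup-ps12 had 6.32, 5.19, 8.67, 4.33 and 4.05 CPM in labelled knockout livers, against 1.40, 0.294, 1.05, 0.227 and 0.775 CPM in wild-type livers (log2 fold change 2.93 ± 0.41, adjusted p = 0.00122). Mup-ps7 had 4.41, 4.36, 3.47, 2.63 and 1.43 CPM in labelled knockout livers, against 0.814, 0.514, 0.878, 0.162 and 0.574 CPM in wild-type livers (log2 fold change 2.47 ± 0.40, adjusted p = 0.00301). In both, the groups did not overlap and wild-type liver 5 was the lowest library. Mup-ps14 had 3.40, 2.81, 3.51, 0.982 and 1.35 CPM in labelled knockout livers, against 0.853, 0.587, 0.667, 0.162 and 0.0574 CPM in wild-type livers (log2 fold change 2.39 ± 0.56, adjusted p = 0.0242; lost without wild-type liver 5, adjusted p = 0.0579). Mup-ps8 had 1.53, 0.963, 1.20, 0.578 and 0.732 CPM in labelled knockout livers, against 0.233, 0.147, 0.281, 0.0973 and 0.0287 CPM in wild-type livers (log2 fold change 2.67 ± 0.47, adjusted p = 0.00469). Mup-ps15 had 0.785, 0.796, 0.619, 1.04 and 1.31 CPM in labelled knockout livers, against 0.194, 0.110, 0.105, 0.130 and 0.287 CPM in wild-type livers (log2 fold change 2.41 ± 0.36, adjusted p = 0.00172). These 3 were also without overlap between groups. Mup-ps13, Mup-ps16 and Mup-ps20 were tested and not called, with log2 fold changes of 0.43, 1.59 and 0.86 (adjusted p = 0.333, 0.136 and 0.451), and Mup-ps16 was called without labelled knockout livers 4 and 5 (2.12, adjusted p = 0.0454). The 14 untested members, 12 pseudogenes among them, had 2 to 377 counts in the labelled knockout livers together apart from Mup4 with 1453, against 0 to 176 counts in the wild-type livers together.

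The shares of the members in the family differed between genotypes. The shares are per length, of the summed FPKM of the members, without Gm21320. Mup3 made up 17.9 to 26.1% in labelled knockout livers and 71.1 to 92.5% in wild-type livers. Mup7 made up 20.6 to 31.6% in labelled knockout livers and 0.226 to 4.95% in wild-type livers. Mup12 made up 18.6 to 29.2% in labelled knockout livers and 0.289 to 3.08% in wild-type livers. Mup20 made up 5.07 to 9.72% in labelled knockout livers and 2.75 to 12.9% in wild-type livers, so its share overlapped between groups.

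In FPKM levels, the order in labelled knockout livers was Mup7 (11033 ± 3027 FPKM), Mup12 (9851 ± 2459 FPKM), Mup3 (9608.5 ± 2191 FPKM), Mup17 (3795 ± 433 FPKM), Mup20 (2878 ± 578 FPKM) and Mup15 (2079 ± 1614 FPKM). The first 3 lie within 1 SD of each other, and Mup7 was above Mup3 in 4 of 5 livers. In wild-type livers the order was Mup3 (7101 ± 2257 FPKM), Mup20 (894 ± 613 FPKM), Mup7 (259 ± 241 FPKM), Mup21 (233 ± 138.5 FPKM) and Mup12 (192 ± 173 FPKM), and Mup7 was above Mup3 in 0 of 5. From Mup7 on, the neighbours in the wild-type order lie within each other's SD. Gm21320, not a member by its name, is left out of both orders. It was at 2626 ± 737 FPKM in labelled knockout livers, between Mup20 and Mup15. In wild-type livers it was at 1417 ± 592 FPKM, between Mup3 and Mup20.

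**Figure D4:**
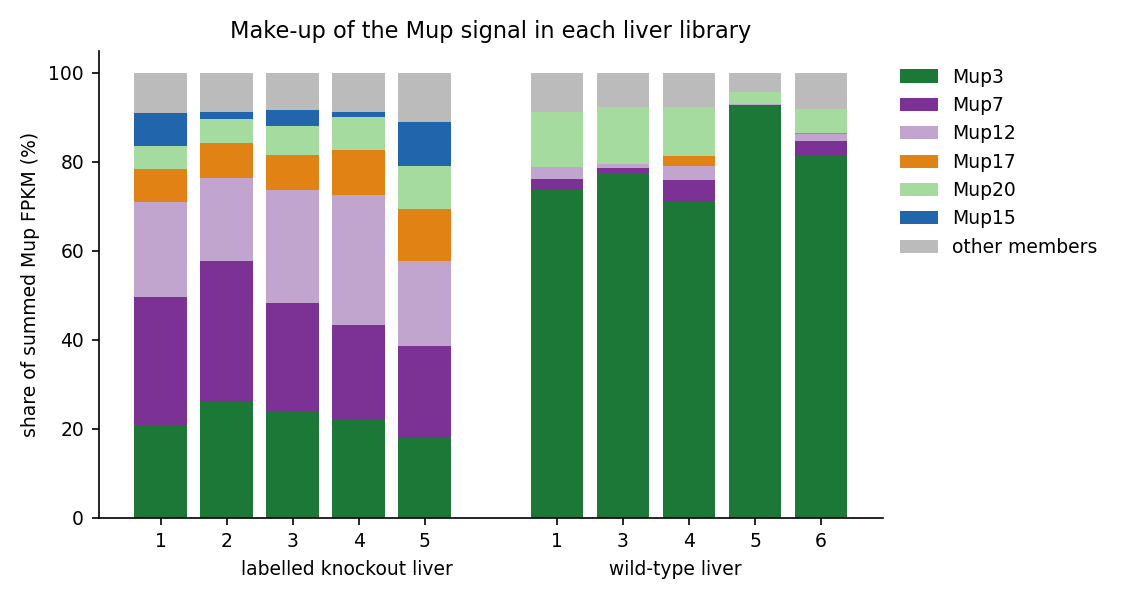
Share of each member in the summed FPKM of the members, without Gm21320, in percent. Labelled knockout livers are left of wild-type livers, with 1 stacked bar per liver library. Mup3 (dark green) fills 71.1 to 92.5% of the wild-type bars and 17.9 to 26.1% of the labelled knockout bars, where Mup7 and Mup12 take similar parts.

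The fold change also differed with how much of a transcript is its own. Among tested members with at least 60% of 100-base windows found in no other gene, 1 of 6 was called and the median log2 fold change was 0.65 (0.21 to 1.69). Among those under 60%, 18 of 22 were called and the median was 3.78 (0.66 to 8.79). Over all genes tested in liver, 6.02% were called and 1.94% were called higher. Members near 0 in wild-type livers passed the filter through the labelled knockout livers, so these counts describe only the members that passed. Among the 21 genes the split is the same as that into sequence classes, so class and sharing of reads cannot be told apart in them. Pseudogenes lay on both sides, with 0 of 2 called at or above 60% (log2 fold change 0.43 and 0.86) and 6 of 7 below it (1.59 to 2.93). The pseudogene split depended on the window length. With 150-base windows the share was 68.2% for Mup-ps12, 63.4% for Mup-ps14 and 78.7% for Mup-ps15, which were called. It was 64.7% for Mup-ps16, which was not called. No test was made of the split.

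**Figure D5:**
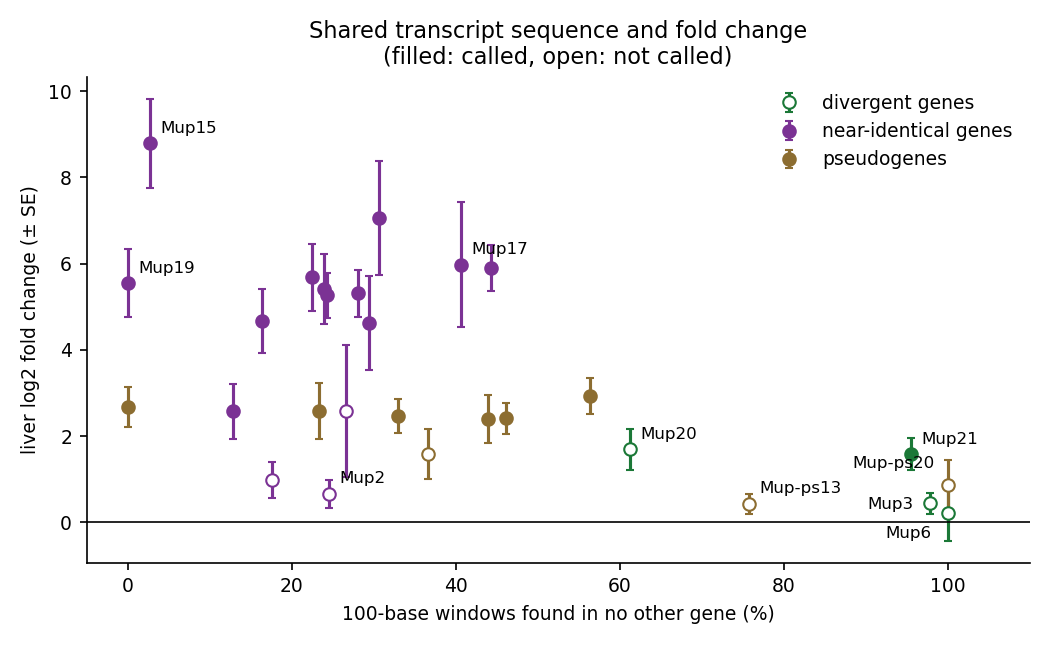
Liver log2 fold change with its standard error against the percentage of 100-base transcript windows found in no other gene, for the 28 tested members, coloured by class and filled where called. The 6 members at or above 60% (Mup20, Mup-ps13, Mup21, Mup3, Mup6 and Mup-ps20) all lie at or below 1.69.

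In kidney the Mup genes were close to undetected in both genotypes. The 42 members together had 1, 4, 2, 2 and 2 counts in labelled knockout kidneys, against 14, 4, 0, 1 and 4 counts in wild-type kidneys, out of 23421561 to 32221055 counts per library. As a level, this was 0.0781 ± 0.0382 CPM in labelled knockout kidneys and 0.142 ± 0.137 CPM in wild-type kidneys (SD, n = 5 each), a difference of -0.0636 CPM that is within 1 SD of the wild-type group. The count of 0 in wild-type kidney 4 allows up to 0.116 CPM.

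A total of 13 members had any kidney count. Mup3 had 0 counts in each labelled knockout kidney, against 11, 3, 0, 0 and 0 counts in wild-type kidneys 1, 3, 4, 5 and 6, and Mup20 had 0, 0, 0, 1 and 1 counts in labelled knockout kidneys, against 3 counts in wild-type kidney 1 and 0 in the others. Mup11 had 1 count in each genotype. The highest sum was in wild-type kidney 1, and Mup3, the highest member of wild-type liver, supplied 11 of its 14 counts. Without that library the kidney difference was -0.0157 CPM.

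No member passed the kidney filter, so none was called, against 2.26% of 16500 genes tested. With every gene of at least 1 count tested by edgeR, 13 members entered, 0 were called and 1 had an unadjusted p under 0.05. The kidney effect minus the liver effect was tested in all 20 libraries without pairing the 2 libraries of a mouse. There 28 members entered and edgeR called 0, against 1.51% of 17606 genes, with 1 at an unadjusted p under 0.05. With mouse as a replicate block, edgeR called 0 of 28 members, against 181 of 17606 genes, with 2 at an unadjusted p under 0.05. Without that block, the DESeq2 test called 6 of the 28 members (1.48% of all genes were called lower) and limma voom 4 (1.39% of all genes). Each was a lower effect in kidney than in liver. Kidney counts this near 0 leave the size of a kidney effect unknown, so the calls in liver are not shown to differ from kidney by the edgeR test.

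A list of 19 genes was set as Mup regulators in mouse liver, and it also holds the Lxr genes Nr1h3 and Nr1h2. Of these, 18 were tested in liver and 2 rose, beside 1.94% of all genes tested. Nr1h3, the targeted gene described above, was among the 2 that rose.

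The 16 others were not called in liver, and 15 of them are given. For the growth hormone arm, log2 fold changes were -0.15 for the receptor Ghr, -0.21 for the kinase Jak2, 0.08 for Stat5a, -0.29 for Stat5b and -0.93 for the feedback inhibitor Socs2 (adjusted p = 0.173 to 0.870). Among nuclear receptors and their coactivator they were -0.19 for the glucocorticoid receptor Nr3c1, -0.40 for the thyroid hormone receptor Thrb, -0.08 for the Lxrβ gene Nr1h2, 0.05 for Hnf4a and -0.42 for Ppargc1a. Among other transcription factors they were -0.13 for Zhx2, which sets Mup levels in some mouse strains, -0.19 for Cebpa, 0.08 for Cebpb, 0.11 for Onecut1 and -0.05 for the repressor Bcl6. The adjusted p of these 10 ran from 0.224 to 0.955. In kidney 18 of the 19 were tested, with log2 fold changes from -1.60 to 1.27, and Nr1h3 alone was called.

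Genes known to respond to growth hormone and STAT5 did not rise as a list. Of 12 tested in liver, 0 rose and 2 fell, beside 1.94% of all genes tested that rose and 4.08% that fell. Their median log2 fold change was 0.04. The 2 were Igfbp3, a carrier of insulin-like growth factors (log2 fold change -1.25 ± 0.31, adjusted p = 0.0337), and the prolactin receptor Prlr (-0.70 ± 0.19, adjusted p = 0.0459). Prlr is also in the female-biased list below, so its fall is counted in both lists. Without labelled knockout livers 4 and 5, 0 of 12 were called. With 1 library left out, the call of Igfbp3 held without labelled knockout liver 3 or wild-type liver 4 alone, and that of Prlr without labelled knockout liver 2 alone (largest adjusted p = 0.0838 and 0.0936).

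Other genes with male-biased or female-biased expression in mouse liver were listed because Mup genes share that bias. Of 17 male-biased genes tested in liver, 8 rose and 0 fell, beside 1.94% of all genes tested that rose and 4.08% that fell. Their median log2 fold change was 0.91. Cyp7b1, the oxysterol 7-alpha-hydroxylase, had 718, 838, 610.3, 879 and 866 CPM in labelled knockout livers, against 47.9, 31.9, 85.2, 34.4 and 37.2 CPM in wild-type livers (log2 fold change 4.05 ± 0.28, adjusted p = 5.01e-06). The others of smallest p were Susd4, a complement inhibitor (3.89 ± 0.23, adjusted p = 1.13e-06), the complement component C6 (2.42 ± 0.35, adjusted p = 0.00145), the selenium-binding protein Selenbp2 (1.46 ± 0.22, adjusted p = 0.00162) and the glutathione transferase Gstp1 (1.92 ± 0.37, adjusted p = 0.00846). Without labelled knockout livers 4 and 5, 6 of 17 were called higher.

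Of 19 female-biased genes, 9 were tested in liver. Among these 9, 0 rose and 8 fell, beside 4.08% of all genes tested that fell, with a median log2 fold change of -5.14. A gene near 0 in labelled knockout livers, such as Cyp2a4, passed the filter through the wild-type livers. These counts therefore describe the genes that passed and do not weigh the list. Cyp2a4, a steroid hydroxylase, had 1.01, 0.168, 0.784, 0.260 and 0.462 CPM in labelled knockout livers, against 128, 115, 186, 695.5 and 189 CPM in wild-type livers 1, 3, 4, 5 and 6 (log2 fold change -8.94 ± 0.69, adjusted p = 1.61e-05). Wild-type liver 5, the library with the lowest Mup sum, had the highest Cyp2a4. The others of smallest p were the cytochrome P450 genes Cyp2b9 (-8.46 ± 0.96, adjusted p = 0.000279) and Cyp2a22 (-5.14 ± 0.64, adjusted p = 0.00057) and the hydroxyacid oxidase Hao2 (-8.01 ± 0.99, adjusted p = 0.000551). Without wild-type liver 5 the log2 fold changes were -8.18 for Cyp2a4, -7.48 for Cyp2b9, -4.38 for Cyp2a22 and -7.09 for Hao2, and these 4 stayed called. Cyp2b9 was at -9.23 without labelled knockout liver 2. With limma voom the log2 fold changes were -7.16 for Cyp2b9, -4.33 for Cyp2a22 and -6.65 for Hao2. Without labelled knockout livers 4 and 5, 14 were tested and 5 fell. In kidney, where 0.394% of all genes tested rose and 1.87% fell, 3 of 14 male-biased genes rose (Cyp4a12a 3.97, Cyp4a12b 1.87 and Slco1a1 2.25 in log2 fold change; adjusted p = 0.00100, 0.0228 and 0.0261), and of 7 female-biased genes Cyp2a4 rose (2.39, adjusted p = 0.00337) and Prlr fell (-2.82, adjusted p = 0.0338). The kidney call was lost in turn without labelled knockout kidney 5 or wild-type kidney 4 or 5 for Cyp4a12b, without labelled knockout kidney 1, 3, 4 or 5 for Slco1a1, and without labelled knockout kidney 1, 3, 4 or 5 or wild-type kidney 5 for Prlr (largest adjusted p = 0.0679, 0.0784 and 0.0947). Without wild-type kidney 5 the log2 fold change of Prlr was -2.10. The summed CPM of 10 proximal tubule markers ran from 44142.5 to 59036 in labelled knockout kidneys and from 25243 to 40679 in wild-type kidneys, where 1 of the 10, Slc22a6, rose; its part in these kidney values was not tested.

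Among other lipocalins, the protein fold the Mup belong to, 11 of 20 were tested in liver. Of these 11, 3 rose and 1 fell, beside 1.94% of all genes tested that rose and 4.08% that fell. Obp2a, an odorant-binding protein, had 4.49, 2.01, 5.24, 1.59 and 8.86 CPM in labelled knockout livers, against 0, 0, 0.141, 0 and 0 CPM in wild-type livers, and was called higher (adjusted p = 0.000238). The 2 acute-phase lipocalins Lcn2 and Orm2 were called (log2 fold change 6.58 and 4.67, adjusted p = 0.0418 and 0.0496). Lcn2 had 8.34, 6.49, 5.53, 1247 and 4142 CPM in labelled knockout livers, against 6.32, 10.6, 6.46, 11.03 and 21.9 CPM in wild-type livers, so it was high in livers 4 and 5 alone, and without those libraries its log2 fold change was -0.72 and that of Orm2 -0.20. Leaving out any single wild-type liver also ended both calls (largest adjusted p = 0.0982 for Lcn2 and 0.110 for Orm2). Ptgds, a prostaglandin synthase, fell (-1.44 ± 0.35, adjusted p = 0.0287). Its call was lost in turn without labelled knockout liver 1, 2 or 4 or wild-type liver 3, 4 or 5 (largest adjusted p = 0.0733), and without labelled knockout livers 4 and 5 together. In kidney 0 of 6 were called by edgeR.

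Of 20 genes tested in liver within 1 Mb outside the cluster, 0 rose and 2 fell, beside 4.08% of all genes tested that fell. They were Ugcg, a glucosylceramide synthase (log2 fold change -0.65 ± 0.13, adjusted p = 0.00879), and Ptgr1, a prostaglandin reductase (-0.81 ± 0.20, adjusted p = 0.0302). With 1 library left out, the call of Ptgr1 held without labelled knockout liver 2 or wild-type liver 4 alone (largest adjusted p = 0.0846). Of 4 genes tested between the members, 1 rose, beside 1.94% of all genes tested that rose. It was the processed transcript Gm13773 at 60502841 to 60521169 on the plus strand (4.09 ± 0.59, adjusted p = 0.00138), which spans Mup-ps6. Gm13773 was at 1.24 ± 0.698 CPM in labelled knockout livers and 0.0703 ± 0.0604 CPM in wild-type livers. Gm21320 averaged 2261 ± 634.5 CPM in labelled knockout livers and 1220.0 ± 509.5 CPM in wild-type livers and was not called (log2 fold change 0.89, adjusted p = 0.0944), though 3 of its 20 alternatives called it higher. In kidney 0 of 25 flanking genes were called by edgeR.

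No hepatocyte marker rose in liver. Of 10 hepatocyte markers tested in liver, 0 rose and 1 fell, beside 1.94% of all genes tested that rose and 4.08% that fell. The 1 was albumin (Alb; log2 fold change -0.75 ± 0.20, adjusted p = 0.0435), with 44650 ± 10680 CPM in labelled knockout livers and 74892 ± 8478 CPM in wild-type livers. Without labelled knockout livers 4 and 5 Alb was not called (-0.54, adjusted p = 0.0851), and with 1 library left out its call held without labelled knockout liver 2 alone (largest adjusted p = 0.0959). The part of Kupffer cell content, of the acute-phase livers and of shared reads in the Mup values was not tested, apart from the fits without labelled knockout livers 4 and 5 given above. The p-values measure the spread between 5 mice of each labelled genotype.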

How the data were processed

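Per the labels, the RNA sequenced came from male C57BL/6 mice, with 1 kidney and 1 liver library per genotype and number. Libraries were grouped by labelled genotype and tissue. The authors deposited a table of raw whole-number counts with 54532 genes in its rows and 20 libraries in its columns. Per the submitters' processing notes, HISAT2 2.0.5, StringTie and DESeq2 1.16.1 were used with mm10, and the counting tool, the use of strand and the treatment of reads that fit several places are not given in the sources used here. The authors also deposited log2 FPKM values of 15454 genes, which include no Mup member and were not used. Libraries held 23421561 to 35376342 counts.

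The 10 libraries of a tissue were fitted in R 4.3.3 with the quasi-likelihood F test of edgeR 4.0.16, after TMM scaling and its filterByExpr at a minimum count of 10. P-values were adjusted over all genes tested (Benjamini and Hochberg), and calls are those under 0.05. The difference of effects used all 20 libraries in 1 fit, without pairing the libraries of a mouse. A replicate block by mouse was an alternative for it. CPM are counts scaled by library size times TMM factor, FPKM are CPM per kilobase of the deposited gene length, and standard errors come from the log2 fold change and its F. Summed levels have no test. In liver they are given as the log2 ratio of group means and in kidney, where counts were near 0, as a difference of mean CPM in place of the log2 ratio first planned. Shares of counts have 95% Wilson intervals, and a count of 0 allows up to 3 counts. Both cover counting error only. The pipeline was tested on simulated data.

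Members and lists were chosen with earlier results of these data known. The rule for named genes gives values per library for members called in either tissue and for the 3 with the highest mean CPM per tissue, and for the others ranges and counts. It gives values for every tested Mup regulator (in kidney, the range and the called gene), for up to 5 called genes of smallest p of each other list, and for called genes within 1 Mb of the cluster. Values of 3 genes of these lists are not reported here. Not called members with values of their own (Mup20, Mup10, Mup16, Mup2, Mup6 and Mup4), the sequence classes and the split at 60% unique windows were chosen after values were seen. Transcript sequences are from GENCODE M21 and promoters from RefSeq GRCm38.p6. All 42 members had the same identifier, symbol, span and strand in GENCODE M21.

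Alternatives were another test (the Wald test of DESeq2 1.42.0, or voom with quality weights in limma 3.58.1), another scaling (size factors of DESeq2, library size alone, or TMM without the members), another filter (at least 1 count in all, or a mean CPM of at least 1), all 20 libraries in 1 fit, a replicate block by title number, leaving out each library in turn, and leaving out labelled knockout livers 4 and 5 or wild-type kidneys 1 and 3. Adding Gm21320 to the summed level and to the near-identical class, and leaving out each library for that class, were chosen after seeing the data.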

Additional observations from a re-analysis of the deposited data

Results flagged for a closer look

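A total of 8 of 60 groups of 5 liver libraries, taken over members, held 1 library far from the other 4. A chance rate of about 1 in 20 groups was assumed and was not measured on these values. Members of the near-identical class share reads, so these groups are not independent. Mup4 and Mup5, which did not pass the filter, are not among the 8. In labelled knockout livers, Mup10 was 778.5 CPM in liver 1 against 6.91 to 12.0 CPM in the other 4, Mup19 was 341 CPM in liver 4 against 30.5 to 106 CPM, Mup-ps19 was 638 CPM in liver 5 against 391 to 428 CPM, and Mup-ps13 was 53.5 CPM in liver 3 against 28.5 to 35.6 CPM. In wild-type livers, Mup17 was 258 CPM in liver 4 against 0.487 to 16.0 CPM in the other 4, Mup11 was 172.5 CPM in liver 1 against 1.98 to 28.0 CPM, Mup10 was 119 CPM in liver 6 against 2.43 to 6.05 CPM, and Mup-ps20 was 15.6 CPM in liver 4 against 1.14 to 5.20 CPM. Each was the highest library of its group, and wild-type liver 4 was that library for both Mup17 and Mup-ps20.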

How the results depend on the processing

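The 19 members called in liver were 16 to 21 when each library was left out in turn, 17 to 20 under the other scalings, tests and filters apart from 27 of 42 with no filter beyond 1 count, and 18 without labelled knockout livers 4 and 5. With a replicate block by title number, 12 of 28 were called. Nothing in the labels makes mice of equal number in the 2 genotypes a pair. Deviations of libraries with the same number had r from -0.0355 to 0.0202 in liver and 0.0401 to 0.173 in kidney. Pairs of different number were not set beside them, so whether equal numbers share a batch was not tested. Kidney and liver libraries of the same genotype and number had r from -0.188 to 0.394. Other pairs were not set beside these either, so whether they come from the same mouse was not tested. Over all genes in liver, 307 were called with the block and 1408 by DESeq2, beside 893 in the edgeR fit. By library size alone 216 genes were called higher and 766 lower in liver, beside 288 and 605 in the edgeR fit with TMM. In kidney, 373 genes were called, beside 1151 by DESeq2, 2151 by voom, 902 with the block, 948 with all 20 libraries, 590 without wild-type kidneys 1 and 3, and 99 to 921 with 1 library left out. For the kidney effect minus the liver effect, DESeq2 called 6 members and voom 4, beside 0 by edgeR with or without a mouse block. The cause was not tested. The summed liver log2 ratio stayed between 2.01 and 2.33, and was 2.07 with Gm21320 added. For the near-identical class alone it was 5.19, became 3.95 with Gm21320 added, and ran from 4.89 to 5.54 with 1 library left out.

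Of 555 recomputed results of single members, 511 kept direction and side of the threshold, 31 lost the call, 8 gained it and 5 turned sign. A total of 10 of the 19 called members were called in each alternative that tested them. Mup6 was 0.21 and became -0.51 with voom, -0.07 without labelled knockout livers 4 and 5, and -0.09 to 0.67 with 1 library left out; Mup10 ran from -1.51 to 5.28. In 8 of the 16 regulators given here, none of these 8 called, the sign turned in 23 of 320 results. With voom, log2 fold changes became -0.05 for Stat5a, -0.36 for Cebpb and 0.04 for Bcl6. Without labelled knockout livers 4 and 5 they became 0.12 for Ghr, -0.26 for Stat5a, 0.06 for Nr3c1, -0.23 for Cebpb, -0.72 for Lcn2 and -0.20 for Orm2. Bcl6 was 0.44 with the block, and Hnf4a -0.03 by library size alone. With 1 library left out the ranges were -0.09 to 0.19 for Stat5a, -0.06 to 0.29 for Cebpb, -0.19 to 0.98 for Onecut1, -0.29 to 0.36 for Bcl6 and -0.13 to 0.01 for Nr1h2. The causes were not tested. The alternative on the log2 FPKM table could not be run, since no member is in it. Kidney counts of 0 to 14 per library limit what can be seen there.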
